A study of Mus musculus with 11 samples.

Results

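A set of 10 genes that mark the cells and the wall of blood vessels was followed through RNA-seq of the postnatal mouse retina: Pecam1, Cdh5, Cldn5, Kdr and Flt1 of endothelial cells, Pdgfrb, Rgs5 and Acta2 of pericytes and smooth muscle, and Col4a1 and Col4a2 of the vascular basement membrane. They were chosen by name and read by their Ensembl identifiers, and make up 10 of the 47069 genes counted. The 11 libraries come from C57BL/6 mice in 4 groups: 2 wild-type libraries at postnatal day 4 (P4), 3 Brn3b-Kir2.1 libraries at P4, 3 wild-type libraries at P8 and 3 Brn3b-Kir2.1 libraries at P8. In Brn3b-Kir2.1 mice (Kir2.1 below) a human Kir2.1 cDNA fused to eYFP stands behind the CAG promoter and a floxed STOP, and Brn3b-cre removes the STOP. Kir2.1 is an inwardly rectifying potassium channel, and Brn3b is a transcription factor of retinal ganglion cells.

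The labels disagree on 3 points. The genotype field of the controls reads wild type, while the protocol names Brn3b-cre mice as controls. The age field reads P8, while the protocol names P11. The source field names retinal ganglion cells, while the tissue field names retina and the protocol dissociates retinas with enzymes and describes no sort. The field values are used here. Whether a library holds 1 animal or several is not given, and nothing says that replicates came from separate animals, so p-values may measure only a technical spread between these libraries.

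In the mouse the inner retina has no vessels at birth. During the first postnatal week endothelial cells spread from the optic nerve head over a network of astrocytes, and sprouts then dive into the retina to form the deeper layers. Vascular endothelial growth factor (VEGF) drives this growth through the receptor Kdr (VEGFR2), while Flt1 (VEGFR1) binds the same ligand tightly and limits it. Pericytes follow the growing vessels, drawn by PDGF-B acting on Pdgfrb, and both cell types lie in a sheet of type IV collagen made of Col4a1 and Col4a2 chains. Kdr is also known in neurons and progenitors of the developing retina. In RNA of whole tissue, fewer cells of a type and less RNA per cell cannot be told apart.

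The starts of 3 of these genes are shown, since the results turn on the contrast between both VEGF receptors and on the paired collagen genes. Each sequence runs 5′ to 3′ on the gene's strand, from 250 bases before the transcription start to 50 bases after it, from RefSeq (GRCm38.p6). For Kdr (chr5:75978406-75978705, minus strand) and Flt1 (chr5:147725962-147726261, minus strand) the capitals mark GGAA or its reverse complement TTCC, the core letters bound by ETS factors, searched on both strands.

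Kdr: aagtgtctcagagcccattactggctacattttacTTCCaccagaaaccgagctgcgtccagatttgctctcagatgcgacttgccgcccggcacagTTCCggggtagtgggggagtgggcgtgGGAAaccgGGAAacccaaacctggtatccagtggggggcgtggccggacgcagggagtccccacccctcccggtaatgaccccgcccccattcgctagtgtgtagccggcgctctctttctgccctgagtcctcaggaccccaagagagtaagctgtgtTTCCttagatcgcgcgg
Flt1: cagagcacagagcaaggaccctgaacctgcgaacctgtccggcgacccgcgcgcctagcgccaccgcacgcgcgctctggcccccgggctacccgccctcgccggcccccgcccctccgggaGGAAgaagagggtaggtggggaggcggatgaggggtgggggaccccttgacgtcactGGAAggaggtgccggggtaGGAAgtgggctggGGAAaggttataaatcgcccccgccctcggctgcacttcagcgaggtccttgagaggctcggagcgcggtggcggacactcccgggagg

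The Kdr window held 5 such matches and the Flt1 window 4. These letters are common: 96.0% of 32851 promoter windows of the same length held at least 1, with a median of 3 matches. The longer ETS motif CCGGAAGT, held by 3.89% of the windows, was absent from the windows of all 7 members with an entry in the table. The windows of Kdr and Flt1 had GC contents of 60.7% and 70.7%, against a median of 52.7% over all windows.

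Col4a1 and Col4a2 lie head to head on chromosome 8. In the Col4a2 window (chr8:11312555-11312854, plus strand) the capitals mark the 22 bases in which the first exons of both genes overlap on opposite strands.

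Col4a2: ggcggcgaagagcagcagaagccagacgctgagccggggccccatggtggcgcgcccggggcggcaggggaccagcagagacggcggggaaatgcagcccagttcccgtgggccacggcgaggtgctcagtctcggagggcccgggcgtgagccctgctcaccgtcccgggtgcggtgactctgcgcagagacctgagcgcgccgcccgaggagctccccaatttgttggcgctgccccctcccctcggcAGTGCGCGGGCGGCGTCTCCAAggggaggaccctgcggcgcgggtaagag

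The windows of Col4a1 and Col4a2 had GC contents of 74.0% and 73.7%. In the annotation (GRCm38, GENCODE M21), Col4a1 runs from 11198423 to 11312826 on the minus strand and Col4a2 from 11312805 to 11449287 on the plus strand. Whether counting used strand is not stated, so reads within the 22 shared bases could go to either gene or to none. Their merged exon lengths are 7464 and 6619 bases.

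The gene counts of a library summed to between 9362215 and 12478838. Several libraries stood apart. Wild-type P4 replicate 2 had a sum of 976 CPM over a list of dividing-cell genes, against 2231 to 2802 in the other 4 P4 libraries. At P8 the rod gene sum was 809, 3229 and 7098 CPM in wild-type replicates 1, 2 and 3, against 6624 to 6878 in Kir2.1, so the wild-type libraries differed most among themselves. Kir2.1 P8 replicate 2 had counts in 31325 genes, against 22609 to 24591 in the other 10. CPM is a gene's count relative to the library's total, after scaling by edgeR's TMM factors. Markers of several retinal cell types were present in each library, with sums of 352 to 1679 CPM over ganglion cell genes and 237 to 7098 CPM over rod genes. At P8 much of the ganglion cell sum came from Isl1, with means of 225 CPM in wild type and 271 in Kir2.1. The sums there were 441 to 589 and 437 to 535 CPM. Sums over fibroblast genes, which mark cells around larger vessels and membranes, were 15.4 to 30.9 CPM except in wild-type P8 replicate 1 (97.3). All 10 genes passed the filter on low counts, as did 18188 genes in all. Results are given with all 11 libraries. They were also computed without wild-type P4 replicate 2, Kir2.1 P8 replicate 2 and either wild-type P8 replicate 3 or wild-type P8 replicate 1. Calls that this changes follow by gene for age in wild type and as a number of genes for age in Kir2.1.

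The endothelial junction and adhesion genes varied widely among libraries of one group. Pecam1 (ENSMUSG00000020717, chromosome 11, 106654217 to 106750628, minus strand) codes for the adhesion molecule CD31 at endothelial contacts. It stood at 11.6 and 12.1 CPM in the wild-type P4 libraries, 6.96, 4.83 and 2.62 in Kir2.1 at P4, 21.2, 13.9 and 4.47 in wild type at P8, and 25.0, 7.27 and 15.7 in Kir2.1 at P8. Every Kir2.1 library at P4 lay below both wild-type libraries, and at P8 the groups overlapped over most of their range.

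Cdh5 (ENSMUSG00000031871, chromosome 8, 104101625 to 104144511, plus strand) codes for VE-cadherin of endothelial adherens junctions. It measured 14.3 and 17.99 CPM in wild type at P4, 19.3, 2.83 and 1.14 in Kir2.1 at P4, 31.1, 19.5 and 8.37 in wild type at P8, and 53.2, 7.48 and 17.0 in Kir2.1 at P8. Its highest library was 46.8 times its lowest, the widest range of the 10 genes, and Kir2.1 P4 replicate 1 lay above both wild-type P4 libraries while replicates 2 and 3 lay far below them. Cldn5 (ENSMUSG00000041378, chromosome 16, 18776847 to 18778262, plus strand, 1 exon), a claudin of endothelial tight junctions, had the same order of the Kir2.1 libraries. Its values were 5.55 and 6.42 CPM in wild type at P4, 6.501, 1.30 and 0.786 in Kir2.1 at P4, 10.98, 8.15 and 3.17 in wild type at P8, and 17.95, 4.88 and 7.93 in Kir2.1 at P8. The groups of both genes overlapped at both ages.

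The VEGF receptors differed in level and in steadiness. Kdr (ENSMUSG00000062960, chromosome 5, 75932827 to 75978458, minus strand) gave 508 and 367 CPM in wild type at P4, 541, 711 and 424 in Kir2.1 at P4, 374, 303 and 276 in wild type at P8, and 348, 278 and 249 in Kir2.1 at P8. Its highest library was 2.85 times its lowest, the narrowest range of the 10 genes, and it fell with age in Kir2.1 with no overlap between ages. The dividing-cell gene sum moved in the same direction, from 976 to 2802 CPM at P4 to 92.7 to 145 CPM at P8, and its part in the Kdr values was not tested.

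Flt1 (ENSMUSG00000029648, chromosome 5, 147561604 to 147726011, minus strand) gave 16.1 and 27.8 CPM in wild type at P4, 21.8, 16.2 and 5.85 in Kir2.1 at P4, 39.1, 31.1 and 27.3 in wild type at P8, and 63.0, 26.4 and 30.0 in Kir2.1 at P8. All Kir2.1 P8 libraries lay above all Kir2.1 P4 libraries, the reverse of Kdr. Per kilobase of merged exon, the ratio of Kdr to Flt1 was 47.1 and 19.7 in wild type at P4, 37.1, 65.5 and 108 in Kir2.1 at P4, 14.3, 14.6 and 15.1 in wild type at P8, and 8.27, 15.8 and 12.5 in Kir2.1 at P8. The ratio was higher in each P4 library than in any P8 library. The merged length of Flt1, 13504 bases, joins all its annotated transcripts, so the ratio depends on which of them were present.

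The mural genes each followed another course. Pdgfrb (ENSMUSG00000024620, chromosome 18, 61045150 to 61085061, plus strand), the PDGF receptor that recruits pericytes, gave 4.78 and 4.73 CPM in wild type at P4, 3.44, 6.13 and 4.63 in Kir2.1 at P4, 7.14, 2.38 and 6.25 in wild type at P8, and 10.8, 7.17 and 4.46 in Kir2.1 at P8. The 4 groups overlapped. Rgs5 (ENSMUSG00000026678, chromosome 1, 169655501 to 169695813, plus strand), a regulator of G protein signalling abundant in pericytes, gave 4.78 and 10.98 CPM in wild type at P4, 6.04, 4.21 and 8.47 in Kir2.1 at P4, 32.02, 21.5 and 18.6 in wild type at P8, and 40.4, 39.0 and 18.7 in Kir2.1 at P8. Each P8 library lay above each P4 library in both genotypes.

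Acta2 (ENSMUSG00000035783, chromosome 19, 34241090 to 34255590, minus strand), smooth muscle actin, was near the limit of these libraries, with 3 to 13 counts in each. Its level lay between 0.253 and 1.35 CPM, and reads shared with other actin genes could add to or take from so few counts.

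The collagen genes were abundant and moved together. Col4a1 (ENSMUSG00000031502) gave 133 and 127 CPM in wild type at P4, 109, 53.2 and 40.9 in Kir2.1 at P4, 198, 131 and 64.6 in wild type at P8, and 226, 99.2 and 128 in Kir2.1 at P8. Col4a2 (ENSMUSG00000031503) gave 110 and 116, then 100, 44.2 and 44.6, then 176, 113 and 80.7, and then 201, 81.3 and 113 CPM in the same order. For both genes the Kir2.1 P4 libraries lay below both wild-type P4 libraries, and Kir2.1 P4 replicate 1 lay nearest to them. Per kilobase, the ratio of Col4a1 to Col4a2 lay between 0.96 and 1.08 in 9 libraries, and at 0.81 in Kir2.1 P4 replicate 3 and 0.71 in wild-type P8 replicate 3.

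Levels of different genes were compared as CPM per kilobase of merged exon. Kdr was the highest of the 10 genes in each library and in each group, with 48.5 in wild type at P4, 61.9 in Kir2.1 at P4, 35.2 in wild type at P8 and 32.3 in Kir2.1 at P8 (group means). Over all 11 libraries its mean of 44.1 ranked 521 among 18095 tested genes with a length. Col4a1 and Col4a2 followed in each group, at 17.4 and 17.1 in wild type at P4, and did not differ beyond their spread. The order below them changed with age. In wild type at P4 Cldn5 (4.23) and Cdh5 (3.84) came next, and then Pecam1 (1.902), Rgs5 (1.73) and Flt1 (1.63). In wild type at P8 Rgs5 (5.29) stood beside Cldn5 (5.25) and Cdh5 (4.67), above Flt1 (2.41) and Pecam1 (2.12). In Kir2.1 at P4 Cldn5 (2.02), Cdh5 (1.85), Rgs5 (1.37), Flt1 (1.08), Pdgfrb (0.864) and Pecam1 (0.771) lay within each other's spread, and in Kir2.1 at P8 Cldn5 (7.24), Rgs5 (7.19) and Cdh5 (6.16) did. Acta2 was lowest in all 4 groups. By its mean over the 11 libraries Acta2 lay above 6.40% of the tested genes.

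**Figure D1:**
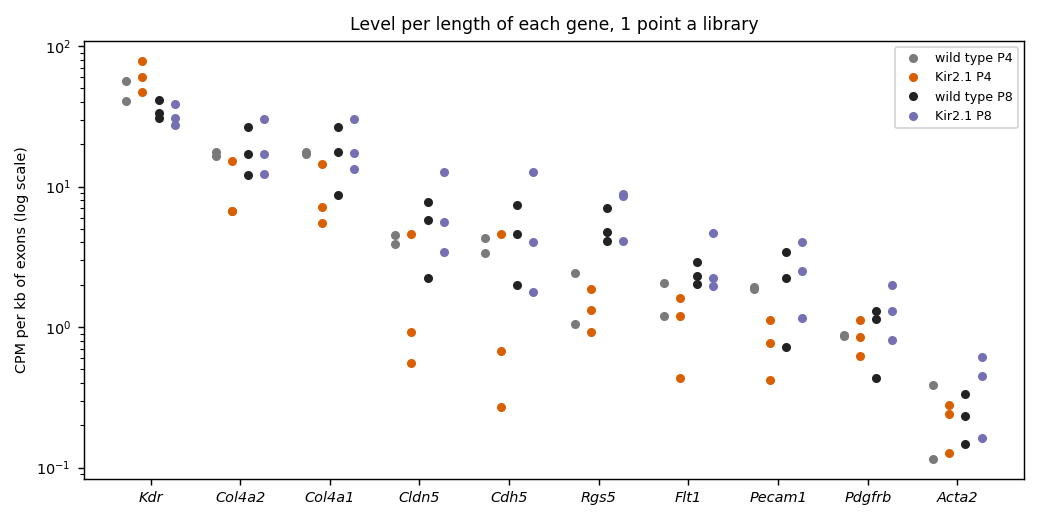
Level per length (TMM-scaled CPM per kilobase of merged exon, log axis) of the 10 genes by group, from 2 libraries in wild type at P4 and 3 in each other group. Kdr is highest in all 4 groups and Acta2 lowest, and the Col4a1 and Col4a2 points lie within each other's spread.

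At P4 most of the 10 genes had lower levels in Kir2.1 than in wild type, and none passed the test. With edgeR's quasi-likelihood test and Benjamini-Hochberg adjustment over 18188 genes, 0 of 10 passed an adjusted p of 0.05, where 0.0% of all genes passed. At an unadjusted p under 0.05 the count was also 0 of 10, against 7.22% of all genes, and DESeq2 called 0 of 10, against 0.141% of the genes to which it gave an adjusted p. In 9 of 10 genes the value was lower in Kir2.1, with a median log2 fold change of -0.72 against 0.01 over all tested genes. The largest difference was that of Pecam1, from 11.8 ± 0.33 (SD, n = 2) to 4.80 ± 2.17 CPM (n = 3), a log2 fold change of -1.30 ± 0.60 (SE) with an edgeR adjusted p of 0.691.

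Col4a1 went from 130 ± 4.11 (n = 2) to 67.7 ± 36.2 CPM (n = 3), with a log2 fold change of -0.94 ± 0.47 and an edgeR adjusted p of 0.704. Col4a2 gave -0.85 ± 0.42 with the same adjusted p. The groups did not overlap, with Kir2.1 lower, for Pecam1, Col4a1 and Col4a2, which is 3 of 10 where 14.4% of all genes were so separated. Kdr was the gene with a value on the other side, at 0.35 ± 0.23 (edgeR adjusted p = 0.739), and ran from 0.14 without wild-type P4 replicate 2 to 0.60 without wild-type P4 replicate 1. Cdh5 (-1.07), Cldn5 (-1.08), Flt1 (-0.59), Rgs5 (-0.34) and Acta2 (-0.21) were below 0 on the log2 scale, and Pdgfrb was at -0.00 ± 0.48. Single libraries moved these values far. Over fits that each left out 1 library, Cdh5 ran from -2.99 (without Kir2.1 P4 replicate 1) to -0.56 (without Kir2.1 P4 replicate 3), Cldn5 from -2.49 to -0.63 without the same libraries, and Flt1 from -0.98 (without Kir2.1 P4 replicate 1) to -0.14 (without wild-type P4 replicate 2). Col4a1 ran from -1.46 to -0.68 and Col4a2 from -1.34 to -0.64. Rgs5 (-0.82 to 0.38), Acta2 (-0.83 to 0.87) and Pdgfrb (-0.23 to 0.19) changed sign, so the number of genes with lower values depended on single libraries.

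Over the same P4 libraries, the summed level of 11 ganglion cell genes was 1679 and 1173 CPM in wild type and 816, 352 and 890 in Kir2.1, with 11 of 11 lower. Values were higher in Kir2.1 for 10 of 10 early genes known to respond to tissue dissociation (median 0.56), 11 of 11 genes of microglia and macrophages (median 0.26), 10 of 10 dividing-cell genes (median 0.32) and 8 of 10 genes of Mueller glia (median 0.28), and lower for 8 of 10 rod genes (median -0.33), none by a call. The part of these in the P4 values was not tested. When no gene was filtered for low counts, edgeR called 4 of the 10 genes lower in Kir2.1 at P4 (Pecam1, Cdh5, Col4a1 and Col4a2), where 0.928% of 36534 genes were called in either direction. In that fit the fold changes were nearly the same, but the SEs of the 10 genes were a median of 0.514 times those with the filter, so its calls rest on a smaller estimate of the spread.

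At P8 most values lay on the other side of 0, and again no gene passed the test. By edgeR, 0 of 10 passed, against 0.0% of all genes. The count was 0 of 10 at an unadjusted p under 0.05, against 6.82%, and 0 of 10 by DESeq2, against 0.00274%. In 9 of 10 genes the value was higher in Kir2.1, and the median log2 fold change was 0.35, against 0.00 over all genes. Markers of other cells moved as well, none by a call. Values were lower for 10 of 11 ganglion cell genes (median -0.18), 5 of 5 tested fibroblast genes (median -1.10) and 4 of 6 astrocyte genes (median -0.24). The fibroblast sum was 97.3 CPM in wild-type replicate 1, 15.4 and 17.2 in wild-type replicates 2 and 3, and 17.9 to 29.4 in Kir2.1. Higher values were those of 10 of 10 rod genes (median 0.88), 10 of 11 genes of microglia and macrophages (median 0.39) and 5 of 5 tested pigment cell genes (median 2.83), whose sum was 27.7 CPM in Kir2.1 P8 replicate 2 and at most 6.37 in the other P8 libraries. Their part in the values of the 10 genes was not tested. Acta2 (0.77 ± 0.75), Pdgfrb (0.51 ± 0.42) and Cldn5 (0.47 ± 0.67) were the largest, with edgeR adjusted p of 0.798, 0.770 and 0.873. Kdr stood at -0.12 ± 0.20. All 10 genes overlapped between the genotypes, where 5.47% of all genes were separated with Kir2.1 higher and 5.15% with Kir2.1 lower.

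For 6 of the 9 genes with higher values, 1 library decided the direction at P8. Kir2.1 P8 replicate 1 was the highest of all 11 libraries for Pecam1, Cdh5, Cldn5, Flt1, Pdgfrb, Rgs5, Col4a1 and Col4a2. Without it, the P8 log2 fold changes became -0.19 for Pecam1, -0.67 for Cdh5, -0.21 for Cldn5, -0.20 for Flt1, -0.20 for Col4a1 and -0.34 for Col4a2. Pdgfrb and Rgs5 stayed above 0 without it, at 0.14 and 0.27, and Acta2 did not pass the filter on low counts without it. The microglial gene sum was also highest at P8 in that library, at 308 CPM against 91.9 to 166 in the other 5, and its part in these values was not tested.

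**Figure D2:**
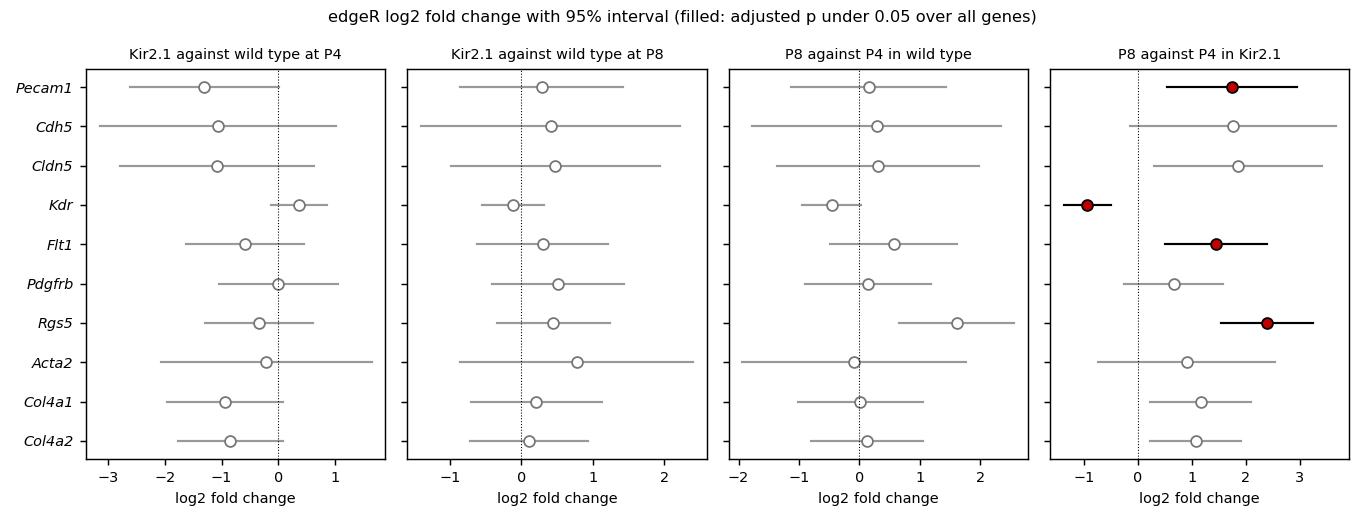
Log2 fold change and 95% confidence interval from edgeR for the 10 genes in 4 comparisons: the genotypes at each age, and P8 against P4 within each genotype. All intervals for genotype include 0, and the intervals of Rgs5 and Kdr for age in Kir2.1 lie to opposite sides of it.

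The difference between the genotype effects at P8 and at P4 was tested as an interaction. By edgeR 0 of 10 genes passed, against 0.0% of all genes, with 0 of 10 at an unadjusted p under 0.05 (3.09% of all genes) and 0 of 10 by DESeq2 (0.0%). The largest interaction values on the log2 scale were 1.59 for Pecam1, 1.55 for Cldn5 and 1.48 for Cdh5, each with an edgeR adjusted p of 1.0, and that of Kdr was -0.47 ± 0.30. Leaving out Kir2.1 P8 replicate 1 lowered these values to 1.103, 0.86 and 0.39, and leaving out Kir2.1 P4 replicate 1 raised those of Cldn5 and Cdh5 to 2.96 and 3.40. Without the filter on low counts, with its smaller SEs, 4 of the 10 passed (Pecam1, Cdh5, Col4a1 and Col4a2), all with positive values, where 0.372% of all genes passed.

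Between P4 and P8 in wild type, Rgs5 stood apart from the other 9 genes. It went from 7.88 ± 4.38 CPM (n = 2) to 24.0 ± 7.06 CPM (n = 3) with no overlap, a log2 fold change of 1.61 ± 0.44, but its edgeR adjusted p of 0.0624 missed the threshold. DESeq2 called Rgs5 higher at P8 (adjusted p = 0.00261), and so did edgeR without wild-type P4 replicate 2 (log2 fold change 2.33, adjusted p = 0.0267) and without wild-type P4 replicate 2, Kir2.1 P8 replicate 2 and wild-type P8 replicate 3 (2.48, adjusted p = 0.0140) or replicate 1 (2.05, adjusted p = 0.0367). Without wild-type P4 replicate 1 the log2 fold change was 1.125, with an adjusted p of 0.653. By edgeR, 0 of the 10 genes passed, where 4.39% of all genes did (0.803% higher and 3.58% lower), and 1 of 10 reached an unadjusted p under 0.05, against 19.6%. DESeq2 called 1 of 10, against 8.86%. Groups separated with P8 higher for Rgs5 only, where 14.2% of all genes were so separated. No member was separated with P8 lower, where 16.9% of all genes were.

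Kdr was at -0.46 ± 0.22 in this comparison (edgeR adjusted p = 0.284) and Flt1 at 0.56 ± 0.48 (adjusted p = 0.584). The remaining 7 values lay within 0.31 of 0 on the log2 scale. In the same comparison 9 of 11 ganglion cell genes (median -2.67) and 10 of 10 dividing-cell genes (median -4.02) were called lower, and 10 of 10 rod genes had higher values (median 2.35) with none called. Their part in the values of the 10 genes was not tested.

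Between P4 and P8 in Kir2.1, edgeR called 4 of the 10 genes, where 16.7% of all genes were called. Of these, 3 rose, where 7.93% of all genes were called higher at P8. Rgs5 rose from 6.24 ± 2.14 to 32.7 ± 12.1 CPM (n = 3 each), by 2.39 ± 0.39 on the log2 scale (edgeR adjusted p = 0.00182). Flt1 rose from 14.6 ± 8.10 to 39.8 ± 20.2 CPM, by 1.45 ± 0.43 (adjusted p = 0.0397), and Pecam1 from 4.80 ± 2.17 to 16.0 ± 8.86 CPM, by 1.74 ± 0.55 (adjusted p = 0.0498). Kdr fell from 559 ± 144 to 292 ± 50.7 CPM, a log2 fold change of -0.94 ± 0.20 (adjusted p = 0.00816), where 8.73% of all genes were called lower. The ages did not overlap, with P8 higher, for Rgs5, Flt1 and Pecam1, where 19.3% of all genes were so separated, and with P8 lower for Kdr, where 18.7% were. In the same comparison 10 of 10 rod genes were called higher (median 3.57) and 10 of 10 dividing-cell genes lower (median -4.17). Of 11 ganglion cell genes 9 were called lower and 1, Isl1, higher (median -1.61). Their part in the values of the 10 genes was not tested.

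The calls for Rgs5 and Kdr held when each Kir2.1 library was left out in turn, with edgeR adjusted p of at most 0.0137 for Rgs5 and 0.0432 for Kdr. That of Pecam1 was lost when any of Kir2.1 P4 replicates 1, 2 and 3 and Kir2.1 P8 replicates 1 and 3 was left out, and also with DESeq2's size factors (adjusted p = 0.0505), and that of Flt1 was lost without Kir2.1 P4 replicate 2 or 3 or Kir2.1 P8 replicate 1 or 3. A further 4 genes had values of similar size that did not pass: Cldn5 at 1.86 ± 0.71 (adjusted p = 0.0994), Cdh5 at 1.76 ± 0.88 (0.205), Col4a1 at 1.16 ± 0.43 (0.0874) and Col4a2 at 1.07 ± 0.39 (0.0814). Single libraries moved these values far: without Kir2.1 P8 replicate 1 they were 1.177, 0.67, 0.75 and 0.63, and without Kir2.1 P4 replicate 1 they were 3.26, 3.67, 1.66 and 1.55, each then called (adjusted p of 0.0170, 0.0264, 0.0402 and 0.0300). Without wild-type P4 replicate 2, Kir2.1 P8 replicate 2 and wild-type P8 replicate 3, 7 of the 10 genes were called, where 16.5% of all genes were, and with wild-type P8 replicate 1 left out in place of replicate 3, 6 of 10 were, against 14.3%. In a fit of the 6 Kir2.1 libraries alone, 6 of 10 were called, Col4a1 and Col4a2 among them, against 25.8% of all genes. With the replicate number as a block, 7 of 10 were called, against 16.1%. With all libraries, 7 of 10 reached an unadjusted p under 0.05, against 29.7% of all genes, and DESeq2 called 5, against 20.2%. The difference between the age effects of Kir2.1 and wild type is the interaction given above, in which no gene passed. The age comparison in Kir2.1 and the genotype comparison at P4 share the 3 Kir2.1 P4 libraries.

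**Figure D3:**
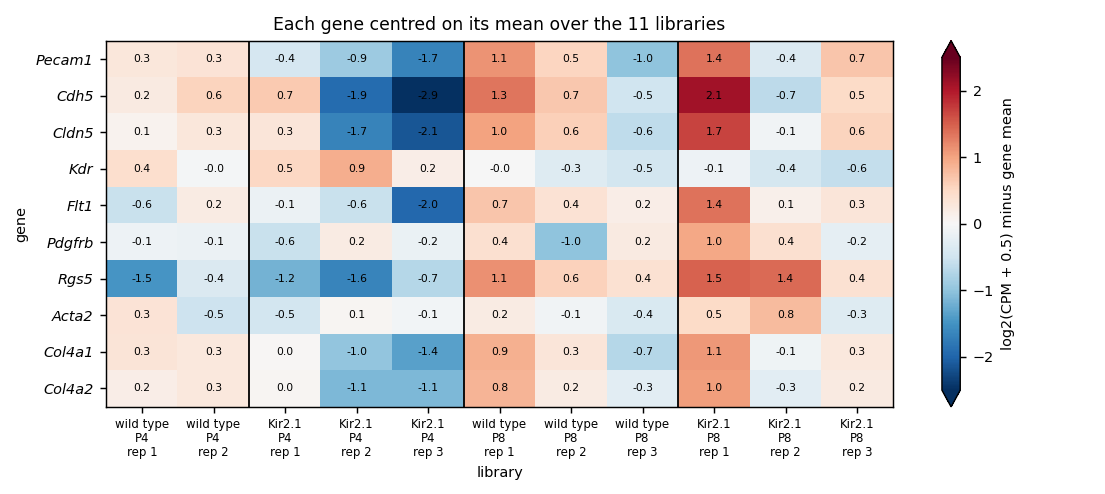
Log2 level of each of the 10 genes in each library, relative to the gene's mean over the 11 libraries (log2 of CPM plus 0.5). Pecam1, Cdh5, Cldn5, Flt1, Col4a1 and Col4a2 are low in Kir2.1 P4 replicates 2 and 3 and high in Kir2.1 P8 replicate 1, while Kdr does not follow them.

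The genes also differed in their spread among libraries of one group. The pooled SD of log2 CPM within groups was 1.45 for Cdh5, 1.11 for Cldn5, 0.87 for Pecam1, 0.84 for Acta2, 0.69 for Flt1, 0.67 for Col4a1, 0.62 for Pdgfrb, 0.59 for Col4a2, 0.58 for Rgs5 and 0.30 for Kdr. The spread of Acta2 comes with its 3 to 13 counts. The summed CPM of Pecam1, Cdh5, Cldn5 and Flt1 was 47.6 and 64.3 in wild type at P4, 54.6, 25.2 and 10.4 in Kir2.1 at P4, 102, 72.6 and 43.3 in wild type at P8, and 159, 46.0 and 70.6 in Kir2.1 at P8. The summed CPM of 26 other endothelial genes ran the same way: 176 and 184, then 161, 61.8 and 51.8, then 269, 205 and 76.9, and then 381, 109 and 183. Both sums were lowest in Kir2.1 P4 replicate 3 and highest in Kir2.1 P8 replicate 1.

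Genes with the most similar profiles were sought among the 15990 genes with a mean of at least 1 CPM, by the root-mean-square difference of centred log2 levels over the 11 libraries. To the mean profile of Pecam1, Cdh5, Cldn5, Kdr and Flt1, itself 0.77 from a flat line, the nearest were Col4a1 (0.18), Prex2 (0.23), Col4a2 (0.23), Nid1 (0.27) and Ahnak (0.30). To the mean of Col4a1 and Col4a2 (0.68 from a flat line) the nearest were Egfl7 (0.23), Fgd5 (0.25), Prex2 (0.26), Nid1 (0.29) and Ahnak (0.30). To the mean of the 3 mural genes (0.54 from a flat line) near genes included Gm45768 (0.23), Gm10516 (0.29), Mettl26 (0.29) and Jrkl (0.29).

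The nearest single genes divided the members. Col4a1 and Col4a2 were each other's nearest gene, at 0.18, and Col4a1 was the nearest to Pecam1 (0.27). Cldn5 was nearest to Eng (0.20), the endothelial TGF-beta coreceptor, Cdh5 to Cldn5 (0.37) and Flt1 to Nid1 (0.26). The nearest gene to Kdr was Ehd2 (0.09), a gene of membrane trafficking. Pdgfrb was nearest to S100a11 (0.25), Acta2 to Pgk1 (0.25) and Rgs5, with the most distant neighbour of the 10, to Slc25a35 (0.43).

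**Figure D4:**
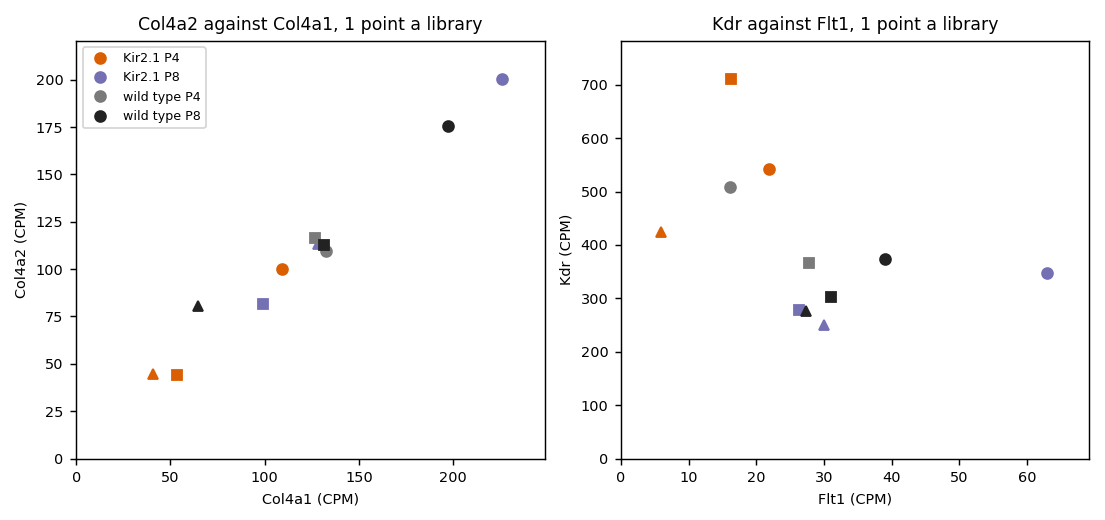
Levels of gene pairs in the 11 libraries (TMM-scaled CPM), coloured by group, with circles, squares and triangles for replicates 1, 2 and 3. Col4a1 and Col4a2 lie along a line, and Kdr and Flt1 do not: the 3 libraries with the lowest Flt1 are P4 libraries, with Kdr above every P8 library.

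Lists of related genes were counted in the same fit. In the genotype comparisons at P4 and P8 and in the interaction, edgeR called no gene of any of the vessel lists. Of 26 other endothelial identity genes 25 passed the filter on low counts, and at P4 23 of these 25 were lower in Kir2.1, with a median log2 fold change of -1.12. At P8 21 of 25 were higher, with a median of 0.21. In wild type, 13 of the 25 were higher at P8 and 12 lower, with a median of 0.06 and none called. In Kir2.1, 23 were higher at P8, with a median of 1.52, and 2 of 25 were called, near the 7.93% of all genes called higher: Esam (2.28, edgeR adjusted p = 0.0266), an adhesion molecule of endothelial cells, and Ramp2 (2.02, adjusted p = 0.0151), a partner of the adrenomedullin receptor. Other vessel lists differed at P4. Higher in Kir2.1 were 10 of 15 other pericyte and smooth muscle genes (median 0.30) and 13 of 22 other basement membrane genes (0.05). So were 7 of 11 barrier genes (0.12) and 6 of 10 tip cell genes (0.14). Lower were 5 of 8 Norrin and Wnt genes (-0.10) and 6 of 11 ligand and receptor genes (-0.06). At P8 14 of 15 other pericyte and smooth muscle genes (0.53) and 4 of 10 tip cell genes (-0.03) were higher.

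Of 18 other pericyte and smooth muscle genes 15 were tested. In Kir2.1, Vtn, vitronectin (2.63, edgeR adjusted p = 0.0015), and Abcc9 (2.43, adjusted p = 0.0128), a potassium channel subunit of pericytes, rose from P4 to P8, as Rgs5 did. Mcam, an adhesion molecule (-1.85, adjusted p = 0.0006), Ndufa4l2, a respiratory chain subunit homologue (-2.33, adjusted p = 0.0024), and Foxd1, a transcription factor also known in ganglion cells (-3.07, adjusted p = 0.0056), were called lower. Abcc9 was named after its value was seen. In wild type Mcam (-1.58, adjusted p = 0.0056) and Ndufa4l2 (-2.32, adjusted p = 0.0087) were called lower too, which is 2 of 15 where 3.58% of all genes were called lower. The list thus held 2 genes called higher and 3 called lower in Kir2.1, of 15, where 16.7% of all genes were called.

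Among 22 other basement membrane genes, Nid1, a linker between laminin and type IV collagen, rose with age in Kir2.1 (1.70, edgeR adjusted p = 0.0122). Lamb2, a laminin chain, Col4a6, another type IV collagen chain, and Fn1, fibronectin, fell (-1.41, -1.61 and -0.84, with adjusted p of 0.0035, 0.0116 and 0.0139). In wild type Col4a4 (-2.69, adjusted p = 0.0163) and Lamb2 (-1.20, adjusted p = 0.0325) fell. The calls were 4 of 22 in Kir2.1, near the 16.7% of all genes, and 2 of 22 in wild type, where 4.39% of all genes were called.

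A list of VEGF, angiopoietin and PDGF ligands, other receptors and regulators held 11 genes. Of these, 2 were called for age in wild type (4.39% of all genes) and 3 in Kir2.1 (16.7%). Hif1a, the oxygen-sensing transcription factor upstream of VEGF, rose with age in wild type (0.50, edgeR adjusted p = 0.0353) and in Kir2.1 (0.57, adjusted p = 0.0037). Nrp1, a coreceptor of Kdr, fell in both (-0.91, adjusted p = 0.0239, and -0.72, adjusted p = 0.0203), and Vegfc rose in Kir2.1 (1.65, adjusted p = 0.0465). Cxcr4, known in the tip cells that lead sprouts and also in other cells of the retina, was called lower at P8 in wild type (-1.33, adjusted p = 0.0310) and in Kir2.1 (-2.10, adjusted p = 0.0007), the 1 gene called among 10 tested of the tip cell list, where 3.58% and 8.73% of all genes were called lower.

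Of 11 genes of the blood-retina barrier, Ocln, a tight junction protein, rose with age in Kir2.1 (3.47, edgeR adjusted p = 0.0145). Of 8 genes of the Norrin and Wnt pathway that shapes retinal vessels, Apcdd1 rose (1.65, adjusted p = 0.0282) and the coreceptors Lrp5 (-1.15, adjusted p = 0.0043) and Lrp6 (-0.41, adjusted p = 0.0191) fell. These are 1 of 11 and 3 of 8 genes, beside 16.7% of all genes.

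The authors' deposited tables of their own comparison gave no adjusted p under 0.05 for any of the 9 members with one, at either age. Of all genes with an adjusted p in the authors' deposited tables, 2.27% had one under 0.05 at P4 and 7.27% at P8. The lowest in the authors' deposited table for P4 was 0.462 (Kdr, log2 fold change 0.37) and for P8 0.643 (Pdgfrb, 0.56). The direction of these fold changes is not stated in the tables, and their ages are known from the tables' names alone. At P4 the authors' deposited table has 2 positive and 8 negative values among the 10 genes, and at P8 6 positive and 4 negative.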

How the data were processed

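RNA-seq measured gene expression in 11 libraries of mouse retina, grouped by genotype and age from their titles. For each library the authors deposited raw counts of reads by Ensembl identifier. The submitters' processing notes name cutadapt 1.18, STAR 2.5.0c, SAMtools 1.9, bedtools 2.26.0, HTSeq 0.6.1, DESeq2 and the build mm10, with no roles. In each file, 6 lines name no gene and held 74.6% to 79.8% of records. They were left out. Per the file headers, the authors' own tables hold a mean normalized count (a signal), log2 fold changes with errors, a statistic (a score), p-values and adjusted p-values.

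Counts were tested with edgeR 4.0.16 in R 4.3.3: filterByExpr by group (18188 of 47069 genes kept), TMM factors (0.964 to 1.05), 1 mean per group over all 11 libraries, quasi-likelihood F test, Benjamini-Hochberg adjustment over all genes tested and a threshold of 0.05. CPM are TMM-scaled, and SE is the fold change over the root of F. The test was also run on simulated counts, whose outcome is not used here. DESeq2 1.42.0, other filters and scalings, a replicate block and leaving out each library were alternatives. Likeness used log2 of CPM plus 0.5. Coordinates and exon lengths came from GENCODE M21 (GRCm38), promoter sequences from RefSeq. All 10 members and the main vessel lists were described, and other genes were named where their edgeR call passed in an age comparison. The members and lists were chosen with earlier results of these data known. One gene that the naming rule picks by likeness is not reported here.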

Additional observations from a re-analysis of the deposited data

How the results depend on the processing

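Most values of the 10 genes in the 5 comparisons kept their direction and their side of the threshold: of the values recomputed, 671 did, 33 came to pass the threshold, 10 ceased to pass it and 44 changed sign. The number of the 10 genes called at P4 was 0 under each alternative except without the filter on low counts, where it was 4, as it was for the interaction, with SEs a median of 0.514 times those with the filter. At P8 it was 0 under each alternative run. For age in wild type the count of 0 became 1 with DESeq2, 2 without the filter and 1 without wild-type P4 replicate 2, Kir2.1 P8 replicate 2 and either wild-type P8 replicate 3 (set A) or replicate 1 (set B), both chosen after seeing the data, and lay between 0 and 1 when each library was left out in turn (1 without wild-type P4 replicate 2). For age in Kir2.1 the count of 4 became 3 with DESeq2 size factors, where Pecam1 was lost, 6 with only the libraries compared, 8 without the filter, 7 without set A and 6 without set B, and lay between 2 and 7 when each library was left out, being 7 when Kir2.1 P4 replicate 1 was absent and 2 when any of Kir2.1 P4 replicate 2 or 3 or Kir2.1 P8 replicate 1 or 3 was. Leaving out a wild-type P4 library leaves 1, which is then assumed to vary like the other groups. Of all genes, 16.6% were called for age in Kir2.1 with DESeq2 size factors and 25.8% with only the libraries compared. Without the filter, 3661 of 36534 genes were called for age in Kir2.1, and 5.63% for age in wild type. For age in Kir2.1 the share was 9.76% without Kir2.1 P4 replicate 1 and 11.5% without replicate 3. Without Kir2.1 P4 replicate 2, 2169 of 18005 genes were called. Without Kir2.1 P8 replicates 1 and 3 the shares were 11.5% and 10.2%. The causes of the changes in these counts were not tested.

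Whether the replicate numbers pair the samples was not decided. Correlations of same-numbered deviations ran from -0.10 to 0.16. With 2 or 3 libraries a group, each centred on its group mean, they cannot exclude pairing. Between the P4 and P8 Kir2.1 libraries each library did correlate best with its own number (0.063, 0.164 and 0.156), a hint from the data and not from the design. A fit with the number as a block called 7 genes for age in Kir2.1, where 16.1% of all genes were called, and changed no other count of the 10. In that comparison the SEs of the 10 genes were a median of 0.804 times those without the block.

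None of the values that changed sign passed the test in the fit of all libraries. Pdgfrb at P4 became 0.0044 with DESeq2 size factors, 0.0039 with DESeq2, 0.0075 with a minimum mean of 1 CPM, 0.00088 with only the libraries compared and 0.080 with the block. With the block, Acta2 became 0.12 at P4 and 0.14 for age in wild type. Without set A, Rgs5 became 0.38 at P4 and -0.23 in the interaction, and Pdgfrb -0.013 for age in wild type. Without set B, Rgs5 became 0.38 at P4, Kdr 0.049 at P8, and for age in wild type Pecam1 -0.36, Cdh5 -0.057, Pdgfrb -0.17, Col4a1 -0.46 and Col4a2 -0.20. Over the fits that left out a library, the log2 values ran at P4 from -0.23 to 0.19 for Pdgfrb, -0.82 to 0.38 for Rgs5 and -0.83 to 0.87 for Acta2. In the interaction Acta2 ran from -0.10 to 1.60. For age in wild type they ran from -0.38 to 0.57 for Pecam1, -0.23 to 0.65 for Cdh5, -0.10 to 0.68 for Cldn5, -0.15 to 0.49 for Pdgfrb, -0.70 to 1.003 for Acta2, -0.42 to 0.34 for Col4a1 and -0.24 to 0.35 for Col4a2. At P8 they ran from -0.19 to 0.80 for Pecam1, -0.67 to 0.90 for Cdh5, -0.21 to 0.86 for Cldn5, -0.27 to 0.0096 for Kdr, -0.20 to 0.52 for Flt1, -0.20 to 0.63 for Col4a1 and -0.34 to 0.45 for Col4a2.

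Over all genes, the count called at P4 went from 0 to 21 with DESeq2, 339 without the filter and 6 without wild-type P4 replicate 1. At P8 it went from 0 to 1 with DESeq2, 447 without the filter, 219 without wild-type P8 replicate 3 and 1 without set A. The interaction count went from 0 to 136 without the filter and 1 without wild-type P4 replicate 1. For age in wild type, 798 became 1444 with DESeq2, 2058 without the filter, 113 with only the libraries compared, 163 and 1339 without wild-type P4 replicates 1 and 2, 1299 without wild-type P8 replicate 1, 1753 without set A and 1750 without set B. The wild-type count was also 558 with the block and 536 without wild-type P8 replicate 2. For age in Kir2.1, 3029 became 4264 with only the libraries compared and 3661 without the filter. When each Kir2.1 library was left out in turn, the count lay between 1764 and 2169. Depth limited Acta2, with 3 to 13 counts per library.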

Other observations

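The authors' deposited tables and the deposited counts differed in the relative level of the collagen genes. The mean normalized count of Col4a2 was 1.32 times that of Col4a1 in the authors' deposited table for P4, while the ratio of their counts lay between 0.826 and 1.09 in the 5 P4 libraries, so no scaling of those libraries gives it. For P8 the ratio in the authors' deposited table was 1.19, and in the 6 libraries the counts gave 0.820 to 1.25. Against the mean count of the libraries at P4, the mean in the authors' deposited table was 0.466 times as high for Col4a1, 0.685 for Col4a2, 0.635 for Kdr, 0.861 for Rgs5 and 1.45 for Acta2. Which counts and libraries entered the authors' tables is not given in the sources used here.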
